A study of Mus musculus with 2 samples.

Results

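The genes for 10 histone deacetylases, Hdac1 to Hdac9 and Hdac11, were described in total RNA of the gastrocnemius, the large calf muscle of the mouse. They were chosen by name as members of 1 enzyme family, and they make up 10 of the 55536 annotated genes and 94 of the 141864 annotated transcripts in the tables. Hdac10 is not among them, so each family or class value below covers these 10 genes only. Muscle came from 2 adult male mice, with no treatment named, of the strain B6CASTF1/J, which crosses C57BL/6J with CAST/EiJ, aged 8 to 10 months. The labels place both in 1 group, as replicate 1 (animal 2) and replicate 2 (animal 4), and give them 1 shared donor identifier. With no second group, each gene's level can be described and the 2 animals can be set against each other, which has no replicate check.

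Histone deacetylases remove acetyl groups from lysines of histones and other proteins. Class I enzymes (Hdac1, Hdac2, Hdac3 and Hdac8) are mostly nuclear, and the first 3 of them work inside corepressor complexes. Class IIa enzymes (Hdac4, Hdac5, Hdac7 and Hdac9) bind MEF2, the transcription factor family of muscle genes, and calcium-dependent and energy-sensing kinases drive them out of the nucleus through 14-3-3 proteins. In muscle, Hdac4 is known for linking loss of nerve input to the myogenin gene Myog. Hdac6 (class IIb) deacetylates tubulin in the cytoplasm, and Hdac11 is the only class IV member.

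Class IIa is known to differ from the other classes at the active site. The windows below, from the annotated transcript with the longest coding sequence, run 18 bases to each side of the codon at the position of the catalytic tyrosine. They are shown because the isoform results turn on whether a transcript codes for this site. Capitals mark that codon.
Hdac1, codon 303: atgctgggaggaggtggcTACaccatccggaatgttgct
Hdac2, codon 304: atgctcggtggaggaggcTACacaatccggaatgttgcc
Hdac8, codon 306: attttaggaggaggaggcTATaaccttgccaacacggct
Hdac4, codon 968: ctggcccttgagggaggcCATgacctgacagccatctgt
Hdac5, codon 1017: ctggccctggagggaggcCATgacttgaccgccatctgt
Hdac7, codon 845: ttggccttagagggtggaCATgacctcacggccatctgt
Hdac9, codon 957: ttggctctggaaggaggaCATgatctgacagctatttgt
Hdac6, first domain, codon 385: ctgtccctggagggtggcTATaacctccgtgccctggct
Hdac6, second domain, codon 781: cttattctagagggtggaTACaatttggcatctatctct
Hdac11, codon 304: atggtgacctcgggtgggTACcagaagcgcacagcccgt
The codon was located by a short amino-acid motif set beforehand for each class, with histidine for class IIa and tyrosine for the others. The residue was therefore fixed by the search, and only the codon was read from the sequence. It was CAT in all 4 class IIa genes, and TAC or TAT in the other genes shown. A histidine at this place is known to leave class IIa enzymes with little deacetylase activity of their own. Hdac6 had 2 such sites, 1 in each of its catalytic domains. For Hdac9 the codon exists in only some transcripts, and its fork is the second sequence set shown here. The first 30 bases are shared by the short form Hdac9-201 and the full-length form Hdac9-204, and the capitals are the coding bases that follow in each.
Hdac9-201: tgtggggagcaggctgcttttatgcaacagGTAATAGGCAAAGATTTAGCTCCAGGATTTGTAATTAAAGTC
Hdac9-204: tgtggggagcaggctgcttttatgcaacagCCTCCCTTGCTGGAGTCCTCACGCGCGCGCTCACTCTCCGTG
The short form goes on for 51 coding bases after the fork, stop codon included, and full-length Hdac9-204 for 1479. The short form thus ends before the deacetylase domain. Such short Hdac9 proteins are known as MITR or HDRP, MEF2-binding repressors without that domain.

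Summed over genes, the estimated counts came to 36792611 for replicate 1 and 37752249 for replicate 2. A count of 0 allows up to 3 counts, or 0.0815 and 0.0795 CPM (counts scaled to library size), and this limit covers counting error only. The tissue label fitted its markers, since 8 of 8 muscle fibre genes were measured, at a median of 11750 TPM in replicate 1 and 12730 TPM in replicate 2. TPM is a relative abundance per transcript length and library. Of 8 lymphocyte genes, 4 had 0 counts in both animals and none reached a mean of 10 counts.

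The family fell into 4 abundant and 6 scarce genes. Hdac5, Hdac4, Hdac3 and Hdac2 held 87.2% ± 0.594 of the family's summed TPM (SD, n = 2), which was 134.8 TPM in replicate 1 and 121.8 TPM in replicate 2. Between Hdac2, the lowest of the 4, and Hdac7, the highest of the 6, the mean TPM differed 6.45-fold. In muscle as a mixed tissue, more cells of a type and more RNA per cell cannot be told apart in any of these levels.

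Among class I genes, Hdac3 was the most abundant. Hdac3 (ENSMUSG00000024454.16, chromosome 18, 37935844 to 37955016 in mm10), the enzyme of the NCoR corepressor complex, had 26.5 TPM in replicate 1 and 25.7 TPM in replicate 2, from 1292 and 1414 counts. Hdac2 (ENSMUSG00000019777.16, chromosome 10, 36974544 to 37001889), a subunit of the Sin3, NuRD and CoREST complexes, had 22.7 TPM in replicate 1 and 20.7 TPM in replicate 2. The ranges of Hdac3 and Hdac2 did not overlap, with Hdac3 above in both animals. Hdac1 (ENSMUSG00000028800.15, chromosome 4, 129516104 to 129542713), the close relative of Hdac2 in those complexes, had 2.77 TPM in replicate 1 and 3.19 TPM in replicate 2. Hdac8 (ENSMUSG00000067567.12, chromosome X, 102284639 to 102505359), which deacetylates the cohesin subunit SMC3, was the lowest of the family with 1.75 and 1.62 TPM from 76 counts in each animal.

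The Hdac1 level carries a limit of its own. Only 60.0% of the 31-base words of its transcripts occurred in no other gene, against 98.8% or more for each other member. The processed pseudogene Gm10093 on chromosome 17 shared 34.8% of them and was itself assigned 43.1 counts in replicate 1 and 38.4 in replicate 2, beside 117 and 169 for Hdac1. With all Gm10093 counts added, Hdac1 would hold 14.6% of the counts of Hdac2 in replicate 1 and 18.4% in replicate 2, at full-length transcripts of 2038 and 2005 bases.

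Class IIa held abundant and scarce genes. Hdac5 (ENSMUSG00000008855.17, chromosome 11, 102194432 to 102230166) had 32.1 TPM in replicate 1 and 36.1 TPM in replicate 2, and Hdac4 (ENSMUSG00000026313.16, chromosome 1, 91928779 to 92195699) had 36.9 and 23.2 TPM. Hdac4 led the family in replicate 1 and came below Hdac5 and Hdac3 in replicate 2, so the order of Hdac5, Hdac4 and Hdac3 was within the spread between animals for each neighbouring pair. Hdac7 (ENSMUSG00000022475.19, chromosome 15, 97792664 to 97844502), best known from endothelial cells and thymocytes, had 3.94 TPM in replicate 1 and 2.79 TPM in replicate 2. Hdac9 (ENSMUSG00000004698.10, chromosome 12, 34047580 to 34917095) had 2.72 and 3.45 TPM. Hdac7 overlaps the protein-coding gene Slc48a1 on the opposite strand by 29 bases. Slc48a1 held 996 and 1082 counts, and the strand setting of the counting is not given in the sources used here.

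Of the remaining classes, Hdac11 (ENSMUSG00000034245.10, chromosome 6, 91156665 to 91174692), which removes longer acyl chains as well, had 2.91 TPM in replicate 1 and 2.53 TPM in replicate 2. Hdac6 (ENSMUSG00000031161.15, chromosome X, 7930120 to 7947889) had 2.55 and 2.47 TPM. Among the 6 scarce genes, all neighbours in the order of means overlapped except Hdac6 and Hdac8. In rank of mean TPM among 22015 nuclear protein-coding genes, the family ran from 1549 for Hdac5 to 9094 for Hdac8.

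**Figure D1:**
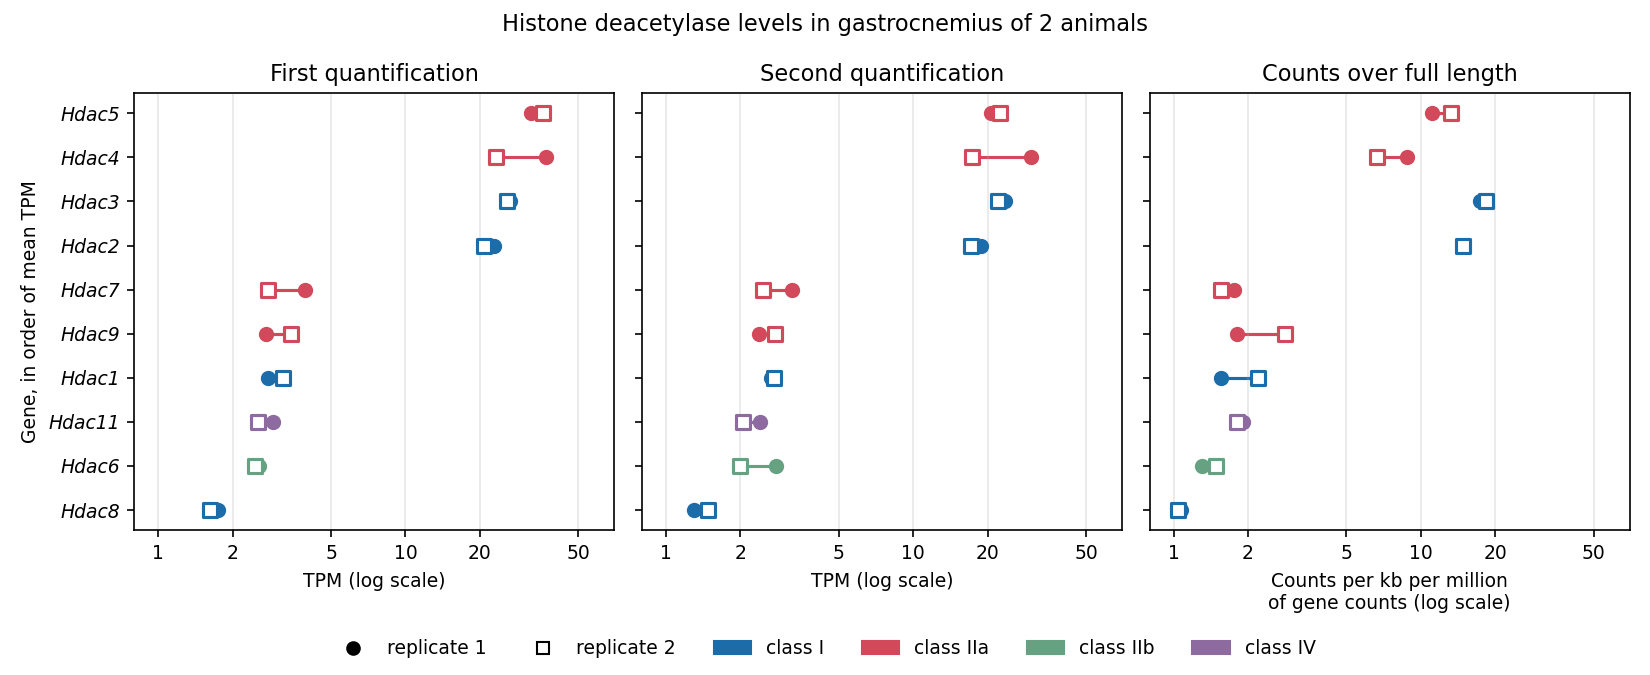
Level of each deacetylase gene (rows, in order of mean TPM) on a log axis, with filled circles for replicate 1, open squares for replicate 2 and colours for the class; the panels give TPM of the first quantification, TPM of the second, and counts per kilobase of the longest coding form, scaled to library size. The gap between 4 abundant and 6 scarce genes appears in all 3 panels, while Hdac4 stands above Hdac3 at 30.04 TPM and below it at 7.69 counts per kilobase.

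The division into 4 and 6 held in both quantifications, but the order inside the upper group did not. In the second quantification, made by the authors from reads and an index, Hdac4 led with a mean of 23.7 TPM, before Hdac3 with 22.8, Hdac5 with 21.6 and Hdac2 with 18.03 TPM. Counted over the length of the transcript with the longest coding sequence, Hdac3 led with 17.9 ± 0.814 counts per kilobase, scaled to library size (SD, n = 2). Hdac2 followed with 14.8 ± 0.0516, Hdac5 with 12.2 ± 1.53 and Hdac4 with 7.69 ± 1.51. This last measure was chosen after the transcript tables had been seen, because short annotated transcripts raised the TPM of Hdac4 and Hdac5, as set out for each gene with its transcripts.

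By class, class IIa genes held 55.0% ± 1.58 of the summed TPM and class I genes 41.0% ± 1.54 (SD, n = 2). Class IV held 2.12%, and class IIb, here Hdac6 alone, 1.96%. Class IIa stood above class I in both animals, at 56.1% against 39.9% in replicate 1 and 53.8% against 42.05% in replicate 2. That order turned round with the measure. Per kilobase of the longest coding form, class I held 56.8% ± 0.315 and class IIa 38.0% ± 0.232. Over transcripts that code for the catalytic codon alone, class I held 64.7% ± 1.57 and class IIa 29.5% ± 1.49, so the TPM lead of class IIa rests on transcripts that do not code for the active site.

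**Figure D2:**
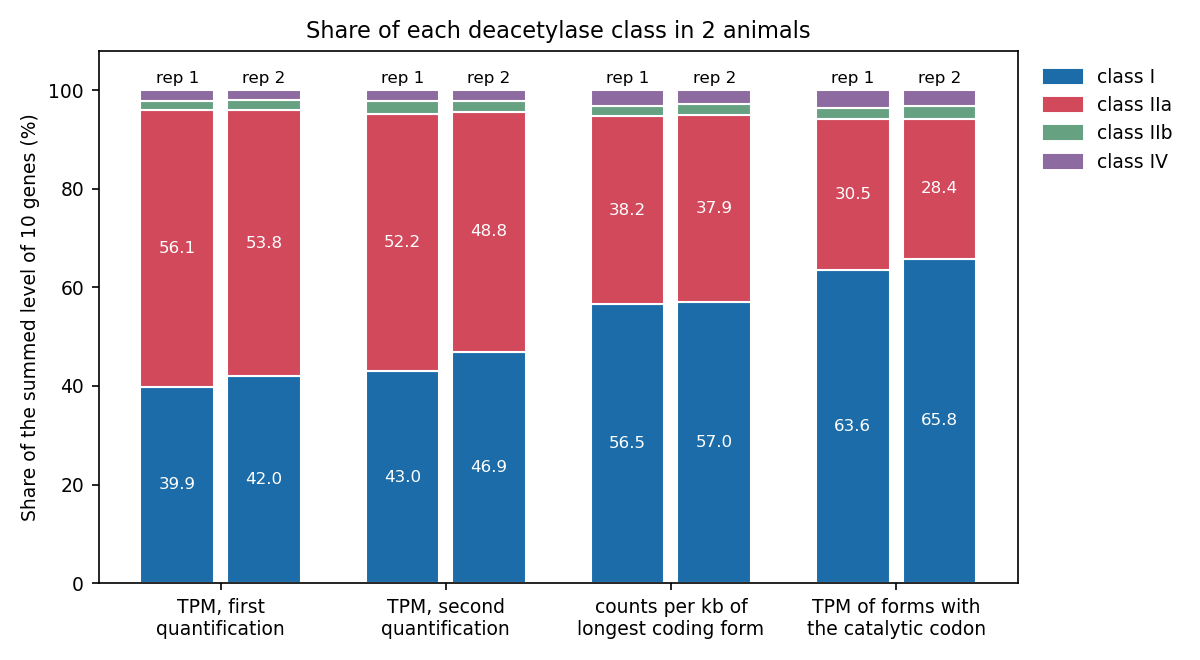
Share of each class in the summed level of the 10 genes (percent), as stacked bars for replicate 1 and replicate 2 under 4 measures. Class IIa leads in both animals on TPM of both quantifications, and class I leads in both animals per kilobase and over forms with the catalytic codon.

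The transcript tables showed simple genes and divided genes. In Hdac2, Hdac11 and Hdac3, 1 coding transcript held nearly everything, with 99.7% ± 0.156 of TPM on Hdac2-201, 98.8% ± 1.65 on Hdac11-201 and 97.6% ± 1.37 on Hdac3-201 (SD, n = 2). Hdac1-201 held 86.0% ± 10.7 and Hdac8-201 held 81.7% ± 0.566. The other transcripts of these genes with 10% or more in an animal were retained-intron forms, namely Hdac1-205 with 12.3% in replicate 1 and 6.49% in replicate 2, and Hdac8-204 with 10.03% and 15.02%. These shares rest on few counts, 6.11 and 4.19 for Hdac1-205 and 2.18 and 3.41 for Hdac8-204. The second quantification gave 18.8% and 0% for Hdac1-205, and 0% and 25.75% for Hdac8-204. Over the 10 genes, 7 had the same leading transcript in both animals, the exceptions being Hdac6, Hdac7 and Hdac9. In the second quantification 6 had, since Hdac4 joined the exceptions, and these 6 genes had the same leading transcript in both animals and both tables.

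**Figure D3:**
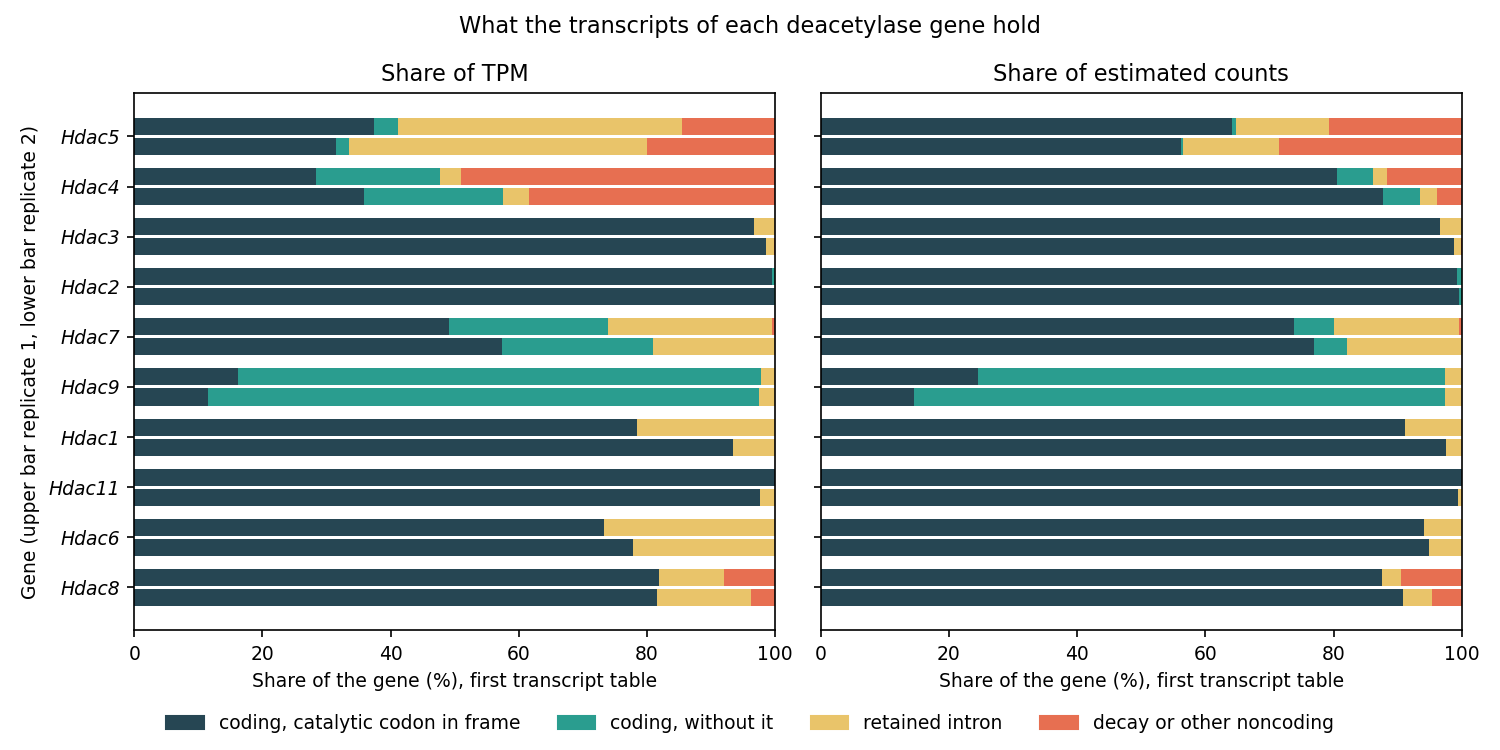
Make-up of each gene (rows, in order of mean TPM) by kind of transcript in the first transcript table, as share of TPM (left) and of estimated counts (right); the upper bar of each gene is replicate 1, the lower bar replicate 2. Dark bars, coding forms with the catalytic codon, fill 99.7% of Hdac2 TPM and 13.9% of Hdac9 TPM, and the counts of Hdac4 lie on them far more than its TPM does.

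Hdac9 RNA in this muscle lay mostly on forms that cannot encode a deacetylase. The short forms Hdac9-201, Hdac9-203 and Hdac9-208 together held 81.6% of Hdac9 TPM in replicate 1 and 85.8% in replicate 2, a mean of 83.7% ± 2.98. The second quantification gave 80.4% in replicate 1 and 80.6% in replicate 2. By estimated counts, where longer transcripts weigh more, the short forms held 72.9% in replicate 1 and 82.8% in replicate 2. Hdac9-201 (4413 bases, 588 codons) took 35.6% of TPM in replicate 1 and 54.8% in replicate 2, while Hdac9-208 (1683 bases, 560 codons) took 46.01% and 30.7%. Both end at the same 51 coding bases after the fork, but Hdac9-208 is annotated to start 91.6 kb downstream and without untranslated sequence. Their shared exons leave the division of reads between them to the quantifier. Forms with the catalytic codon held 13.9% ± 3.26 of Hdac9 TPM, the lowest share in the family.

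**Figure D4:**
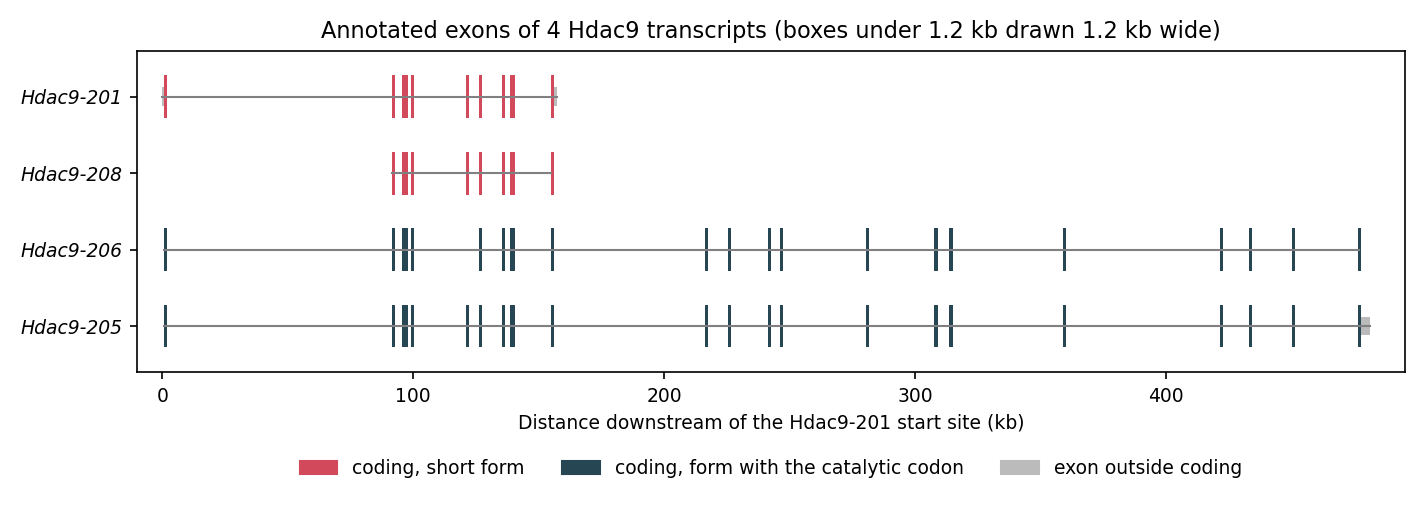
Annotated exons of 4 Hdac9 transcripts by distance from the start site of Hdac9-201 in kilobases, drawn to scale apart from a minimum box width of 1.2 kb; tall boxes are coding. The short forms Hdac9-201 and Hdac9-208 stop before the exons that hold the catalytic codon in Hdac9-206 and Hdac9-205.

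For Hdac4, counts and TPM described different genes. The full-length form Hdac4-202 (8100 bases, 1076 codons) took 80.3% of Hdac4 counts in replicate 1 and 82.1% in replicate 2, but 28.2% and 31.4% of TPM. Transcripts shorter than a kilobase held 62.9% ± 1.24 of Hdac4 TPM on 10.3% ± 0.354 of its counts (SD, n = 2). Among these were the noncoding Hdac4-204 (407 bases, 3 exons) with 25.4% of TPM and Hdac4-207 (410 bases, 4 exons) with 15.2%, which start at the same base, and the partial coding form Hdac4-206 (938 bases) with 17.0%. The second quantification placed Hdac4-204 at 11.2% in replicate 1 and listed it at 0 in replicate 2, with 28.1% and 19.8% on Hdac4-207. Over 9068 protein-coding genes, transcripts shorter than a kilobase held a median of 10.5% of a gene's TPM, with quartiles at 0.817% and 31.7%. The TPM of Hdac4, unlike its counts, thus depends on few reads placed on short annotated fragments.

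Hdac5 had the highest retained-intron share of TPM among the members in the first quantification, but not of counts. Retained-intron transcripts took 44.3% of Hdac5 TPM in replicate 1 and 46.5% in replicate 2. By counts these shares were 14.5% in replicate 1 and 14.9% in replicate 2, below the 19.5% and 17.9% of Hdac7 counts. Over the same 9068 genes the median share was 1.04%, with quartiles at 0% and 6.37%. The second quantification gave 28.7% ± 0.0969, and there Hdac6 had the higher mean at 33.3% ± 13.9, so the lead of Hdac5 did not hold across quantifications. The difference lay mainly in Hdac5-211 (754 bases), with 22.9% in the first table and 2.95% in the second. The full-length form Hdac5-204 (3788 bases, 1115 codons) led in both animals with 27.0% ± 3.48 of TPM, or 38.1% ± 4.99 in the second table. A transcript annotated for nonsense-mediated decay, Hdac5-205 (3872 bases, reading frame of 64 codons), held 11.6% of TPM in replicate 1 and 15.2% in replicate 2. Its share of counts was 20.2% in replicate 1 and 27.6% in replicate 2.

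Hdac6 and Hdac7 had different leading transcripts in the 2 animals. Hdac6-202 and Hdac6-201 share a start site and a coding length of 1149 codons, and both code for the catalytic codon. Hdac6-202 held 50.2% of Hdac6 TPM in replicate 1 and 25.4% in replicate 2, whereas Hdac6-201 held 21.3% and 52.3%. The second quantification showed less of this, with 29.4% and 28.5% on Hdac6-202 and 16.5% and 39.1% on Hdac6-201. For Hdac7, the partial coding form Hdac7-209 (770 bases) led in replicate 1 with 24.7% of TPM, beside 23.6% in replicate 2. Full-length Hdac7-202 held 12.5% in replicate 1 and led with 34.4% in replicate 2. By counts, full-length Hdac7-204 had 84.5 counts in replicate 1 and was listed at 0 in replicate 2, while Hdac7-202, which starts 12.5 kb downstream, had 51.3 and 113 counts. In the second table Hdac7-204 had 147 counts in replicate 1 and 0.892 in replicate 2. By TPM the leaders there were Hdac7-204 in replicate 1, with 34.5%, and full-length Hdac7-205 in replicate 2, with 38.7%. In the first table Hdac7-205 held 15.4% and 22.8% of TPM. The leading Hdac7 transcripts thus differed between the quantifications as well. These shares rest on 199 and 232 counts for Hdac6 and 266 and 241 for Hdac7, and were not tested.

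Promoter windows of RefSeq (GRCm38.p6, 250 bases before to 50 after a start site) were found for 8 of the 10 genes, in 12 windows. They were searched on both strands for the MEF2 site because class IIa enzymes act through MEF2. The Hdac5 window alone held a match, and 3.19% of 32851 promoters of the same length hold one. It lies at chr11:102230173-102230217, minus strand, from base -45 to -1 before the start site, and the match is in capitals.
Hdac5: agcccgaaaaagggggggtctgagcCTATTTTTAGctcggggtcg
The E-box CANNTG, the site of MyoD-type factors, is in 72.3% of those promoters. A match is a description of the sequence only.

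Between the animals, 3 of the 10 genes passed the test, where 21.6% of 14101 tested genes passed. The test was an exact two-sided binomial test of the 2 libraries with Benjamini-Hochberg adjustment over all tested genes at 0.05, and a gene that passed it is described as called. Of 9516 genes whose mean count was 100 or higher, 9 members among them, 26.5% passed, so the family's share was near the background. The 3 called genes, Hdac4, Hdac9 and Hdac5, are all class IIa. The test covers counting error alone, and p-values measure only the spread between these 2 libraries, which may be technical. When a biological variation of 0.1 was assumed in edgeR's exact test, no member passed after adjustment and 2 had an unadjusted p under 0.05. Of all 14101 tested genes, 290 passed after adjustment in that test and 1163 had an unadjusted p under 0.05.

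Hdac4 had 2610 counts in replicate 1 and 2027 in replicate 2. It was higher in replicate 1, with a log2 ratio of 0.51 (95% interval 0.43 to 0.60, adjusted p = 8.26e-32, exact binomial test), and the ratio lay between 0.40 and 0.66 under other scalings of library size. The excess was on full-length Hdac4-202 too, with 2095 counts in replicate 1 and 1664 in replicate 2. Its log2 ratio was 0.48 in the first table and 0.48 in the second. Together the forms with the catalytic codon, Hdac4-201 and Hdac4-202, had 2103.2 and 1776.5 counts, a log2 ratio of 0.39, or 0.38 in the second table. The other Hdac4 forms differed more, with 506.8 and 250.5 counts, a log2 ratio of 1.16. They also differed more in the second table. These transcript ratios were not tested.

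Hdac9 had 213 counts in replicate 1 and 340 in replicate 2. It was lower in replicate 1, with a log2 ratio of -0.52 (95% interval -0.78 to -0.27, adjusted p = 0.000338, exact binomial test), and between -0.64 and -0.37 under other scalings. The difference lay on Hdac9-201, with 105 counts in replicate 1 and 233 in replicate 2, a log2 ratio of -0.99, or -1.13 in the second table. Hdac9-208 held 49.9 and 47.9 counts. On forms with the catalytic codon the quantifications differed in direction, with 52.2 and 49.5 counts in the first table and 33.9 and 70.8 in the second. These transcript ratios were not tested.

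Hdac5 had 1746 counts in replicate 1 and 2141 in replicate 2. It was lower in replicate 1, with a log2 ratio of -0.14 (95% interval -0.24 to -0.05, adjusted p = 0.013, exact binomial test). Scaled to the spike-ins, synthetic RNAs added to each library in amounts not given in the sources used here, the ratio was 0.0058 and no longer passed, so this call depends on the scaling. The decay transcript Hdac5-205 had 352 counts in replicate 1 and 591 in replicate 2, a log2 ratio of -0.60, or -0.63 in the second table. The full-length Hdac5-204 had 879 and 934 counts, a ratio of 0.06 that is smaller than the 0.11 by which total-count scaling lowers each ratio. Within Hdac5, then, the decay transcript differed more between the animals than the full-length form in both tables. The retained-intron forms Hdac5-211 and Hdac5-217 were also lower in replicate 1, with log2 ratios of -0.34 and -0.37, or -1.43 and -0.56 in the second table. The ratio of -1.43 rests on 5.78 and 19.2 counts. These transcript ratios were not tested.

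**Figure D5:**
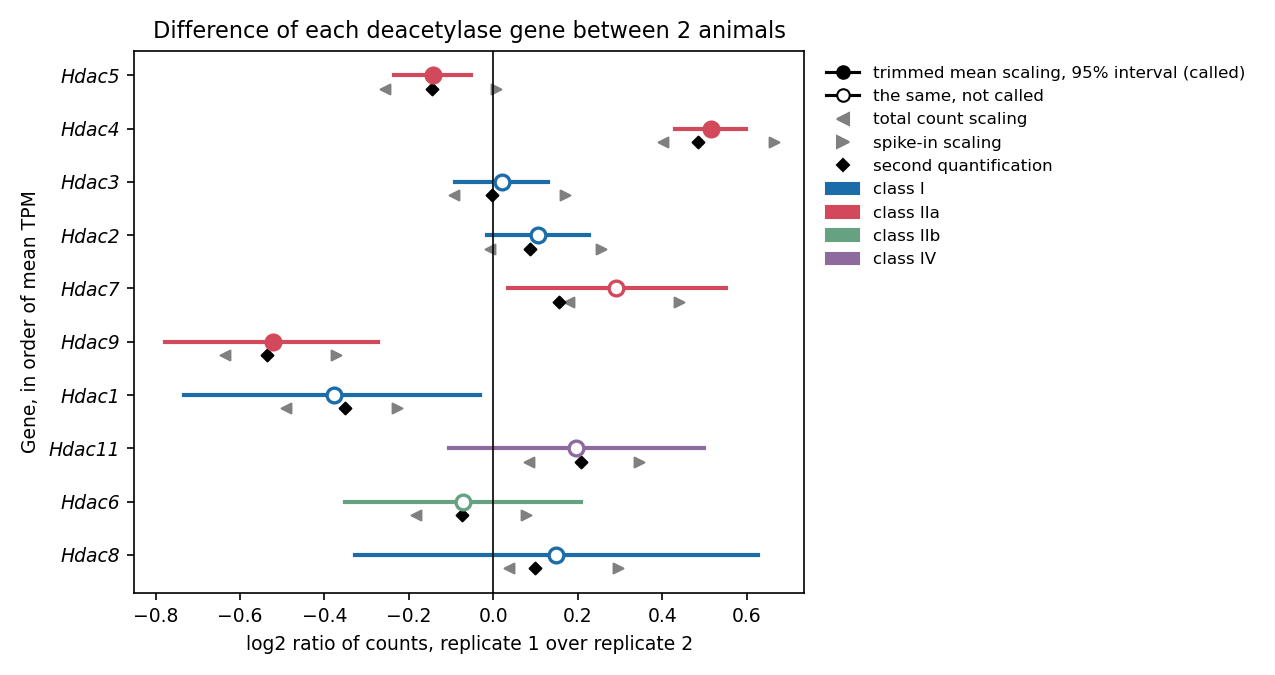
Log2 ratio of counts of each deacetylase gene, replicate 1 over replicate 2, with its 95% interval; filled circles are the 3 called genes, and the small markers under each give the ratio under 2 other scalings and in the second quantification. Hdac4 lies right of 0 and Hdac9 left of 0 under every marker, while Hdac5, Hdac3, Hdac2 and Hdac6 have markers on both sides.

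The other 7 members did not pass with TMM scaling, and 4 of them did with another scaling. Of all 14101 tested genes, 3043 passed with TMM, 4363 with total counts and 5018 with spike-ins. Members that passed were 3, 4 and 5 in the same order, so their number rose together with that of all genes. With total counts Hdac1 passed (adjusted p = 0.0179, exact binomial test), and with spike-ins Hdac2 (adjusted p = 0.000197), Hdac3 (0.0087) and Hdac7 (0.00265) passed. With TMM, Hdac1 had a log2 ratio of -0.38 (adjusted p = 0.105, exact binomial test) and Hdac7 of 0.29 (adjusted p = 0.09), with 95% intervals of -0.73 to -0.03 and 0.04 to 0.55. The ratios of Hdac2 (0.11), Hdac3 (0.02) and Hdac6 (-0.07) were small enough to change sign with the scaling. For Hdac8 the interval ran from -0.33 to 0.63, so at 76 counts per animal a difference of that size was not detectable. The median log2 ratio of the 10 genes was 0.06, beside -0.0055 over all tested genes, and their median absolute ratio was 0.17 beside 0.16.

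Genes that work with the deacetylases were followed in 13 lists, chosen with earlier results of these data known. Of 125 tested partner genes 45 passed, or 36.0%, with 23 higher in replicate 1 and 22 lower. Over all tested genes, 10.8% were higher in replicate 1 and 10.7% lower. These splits rest on TMM scaling. With spike-in scaling 4370 of all tested genes were higher and 648 lower, and 61 partner genes were higher and 3 lower. With total counts 735 were higher and 3628 lower, and 12 partner genes were higher and 44 lower. The list counts that follow are with TMM. The list around Hdac4 and Myog, genes of the response to loss of nerve input, had 5 of 13 tested genes higher in replicate 1 and 0 lower (4 higher and 3 lower with total counts), at a median log2 ratio of 0.17 that ran from 0.06 to 0.32 under other scalings. Myog, the myogenic factor myogenin, had 240 counts in replicate 1 and 68 in replicate 2, a log2 ratio of 1.95 (adjusted p = 6.14e-26, exact binomial test). Gadd45a, a stress gene of denervated muscle, had 236 and 174 counts and a ratio of 0.59. Musk, the receptor kinase of the neuromuscular junction, had a ratio of 0.23, and Fbxo32, the ubiquitin ligase atrogin-1, one of 0.15. Trim63, the atrophy ligase MuRF1, had 3732 and 4118 counts and a ratio of 0.01, and did not pass. Hdac4 and these called genes were thus higher in the same animal, and a relation between them cannot be tested over 2 animals.

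Of the kinases that phosphorylate class IIa enzymes, 5 of 17 were higher in replicate 1 and 5 lower, against 10 higher and 0 lower with spike-in scaling and 2 higher and 8 lower with total counts. Sik1, a kinase induced by cyclic AMP, had 957 counts in replicate 1 and 330 in replicate 2, a log2 ratio of 1.68. Camk2a had the highest gene TPM of the list at 199 ± 7.39 (SD, n = 2). Camk2g followed at 79.2 ± 2.39 and Prkaa2, a catalytic subunit of AMPK, at 74.1 ± 2.66 TPM. Gene TPM does not tell kinase-coding transcripts from others, and the transcripts of these genes were not examined. The MEF2 factors that class IIa enzymes bind were abundant, with Mef2c at 191 ± 19.7, Mef2d at 73.1 ± 0.587 and Mef2a at 43.2 ± 1.75 TPM. Among 3 tested MEF2 genes only Mef2c passed, at a log2 ratio of -0.11, which is smaller than the 0.15 by which spike-in scaling raises each ratio. Of the 7 genes for 14-3-3 proteins, 2 were lower in replicate 1 and 0 higher (0 and 3 with spike-in scaling), and their median ratio of -0.02 was 0.13 with spike-in scaling.

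The median member had 22.1 ± 0.7 TPM in the NCoR complex, 17.9 ± 0.00707 in NuRD, 6.24 ± 0.233 in Sin3 and 6.23 ± 0.0566 in the CoREST and MiDAC complexes (SD, n = 2). In the NCoR complex, the partner of Hdac3, Ncor1 had 54.2 ± 8.08 TPM and Tbl1xr1 22.1 ± 0.7 TPM, beside 26.1 ± 0.573 TPM for Hdac3 itself (SD, n = 2). By counts, 2025 and 1875, Tbl1xr1 was higher in replicate 1, at a log2 ratio of 0.26. Its TPM went the other way, with 21.6 in replicate 1 and 22.6 in replicate 2. Of 10 tested genes of the NuRD complex, a chromatin remodeller with Hdac1 and Hdac2, 4 were lower in replicate 1 and 0 higher (1 and 3 with spike-in scaling), at a median ratio of -0.11 that was 0.04 with spike-in scaling. The Sin3 complex had 1 of 14 lower and 0 higher, and the CoREST and MiDAC complexes 3 of 15 lower and 1 higher. Neither of the histone-binding subunits Rbbp4 and Rbbp7 passed.

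Among clients and partners of Hdac6, 5 of 15 were higher in replicate 1 and 5 lower, against 10 and 0 with spike-in scaling. Tuba4a, a tubulin gene of its main substrate, had 549 ± 1.72 TPM. Of the histone acetyltransferases, which oppose the family, 4 of 13 were higher in replicate 1 and 0 lower (0 and 5 with total counts), at a median ratio of 0.08 that was -0.04 with total counts. Examples were Ep300 at a log2 ratio of 0.18 and Ncoa3 at 0.19. Of 4 bromodomain readers of acetylated histones, 1 was higher and 0 lower. The sirtuins, deacetylases of a separate family that use NAD, had 1 of 7 lower and 0 higher. Sirt2 led them at 42.3 ± 1.64 TPM, above each histone deacetylase, while the called gene was Sirt1 with 232 counts in replicate 1 and 339 in replicate 2.

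Markers of fibre type and of some other cells also differed between the animals, and over 2 animals a relation to the deacetylases cannot be tested. All 8 slow fibre genes were higher in replicate 1, where Hdac4 was higher, at a median log2 ratio of 0.59 and a summed level of 1742 TPM in replicate 1 and 1160 TPM in replicate 2. With TMM, Hdac9 and Hdac5 were lower in replicate 1. So were 8 of 10 smooth muscle and pericyte genes, 7 of 12 endothelial genes and 5 of 7 adipocyte genes. Their median ratios were -0.47, -0.30 and -0.38, and 1 endothelial gene was higher in replicate 1. With spike-in scaling 7, 3 and 2 genes of these lists were lower and 1, 1 and 0 higher, and the Hdac5 ratio was 0.0058. Over all 14101 tested genes, 10.7% were lower in replicate 1 with TMM and 4.6% with spike-in scaling. Those higher in replicate 1 were 10.8% with TMM and 4370 genes with spike-in scaling. Summed levels were 171 and 203 TPM for smooth muscle and pericyte genes in replicate 1 and replicate 2. They were 86.4 and 95.1 TPM for endothelial genes, and 78.2 and 95.6 TPM for adipocyte genes. Single genes weighed heavily in these sums. Fabp4 alone had 55.7 and 64.0 TPM in the adipocyte list. In the smooth muscle and pericyte list Rgs5 had 58.4 and 66.5 TPM, and Abcc9, which was not called, 63.3 and 60.65 TPM. The sums are therefore not amounts of a cell type. Muscle fibre genes were higher in replicate 1 for 1 of 8 and lower for 7 (5 and 3 with spike-in scaling), at a median of -0.10 that was 0.05 with spike-in scaling. Fibroblast genes had 1 of 8 higher and 2 lower (4 and 0 with spike-in scaling, 0 and 5 with total counts). Myeloid genes had 1 of 8 higher and 0 lower, Schwann cell genes 1 of 6 lower and satellite cell genes 1 of 5 lower. The part of fibre type or cell make-up in the Hdac4, Hdac9 and Hdac5 differences was not tested.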

How the data were processed

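The members and gene lists were chosen with earlier results of these data known. Per the labels' protocols, 300 ng of total RNA per animal, with ribosomal RNA reduced and ERCC spike-ins added, went into a directional kit. Per the deposited README, gene and first transcript tables were made from transcriptome alignments, and second transcript tables from reads and an index, on mm10 with GENCODE M21. The column names are those of RSEM and kallisto, per the file headers. Aligner, versions and strand setting are not given in the sources used here. Expected counts in the deposited tables are reads estimated per gene or transcript, with no normalization. The deposited TPM is scaled by length over all entries, and the percent column, per the file headers, is a transcript's share of its gene.

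Counts were rounded, and library sizes came from edgeR 4.0.16 (TMM, the trimmed mean of M values) in R 4.3.3. An exact two-sided binomial test with Benjamini-Hochberg adjustment was run on genes whose mean count was at least 10, since 1 library per animal leaves no residual degrees of freedom for a quasi-likelihood fit. The test was checked on simulated data. Ratios are replicate 1 over replicate 2 with a prior of 1 count, and intervals are 95% Clopper-Pearson. All members were named. Of each partner list, the rule took up to 3 genes by TPM and up to 2 called genes by ratio at a mean of 100 or more counts, and some of these are not reported here. Gm10093 and Slc48a1 lie outside it and were picked once their values were known. Transcripts were taken from 10% of their gene. Coding sequences and 31-base words came from the M21 transcripts. As alternatives, libraries were scaled by total counts, spike-ins or DESeq2 1.42.0, with other minimums and another prior, an assumed variation of 0.1 or 0.2, the second tables, a rescaled TPM and each animal left out. Counts per kilobase, catalytic-codon transcripts and the settings for the Hdac9 share were added after the data were seen. With 2 samples any 2 genes correlate at 1 or -1, so no likeness of pattern was computed. Other steps ran in scipy 1.17.1, pandas 2.3.3 and numpy 2.4.6 under Python 3.11.15, with figures by matplotlib 3.10.9.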

Additional observations from a re-analysis of the deposited data

How the results depend on the processing

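Of 10 members and 14101 tested genes, 5 and 5018 were called with spike-in scaling (4370 genes higher in replicate 1 and 648 lower). With total counts 4 and 4363 were called (735 higher and 3628 lower), and with TMM 3 and 3043 (1529 higher and 1514 lower). With an assumed variation of 0.1 in edgeR's exact test 0 members and 290 genes were called (2 members and 1163 genes at an unadjusted p under 0.05), and with 0.2 the counts were 0 and 85 (0 and 450 unadjusted). The smallest adjusted p of a member was 0.276, for Hdac4, with 0.1, and with 0.2 it was 1.0 for each member. Log2 ratios changed sign for Hdac2 (-0.0071) and Hdac3 (-0.093) with total counts, for Hdac3 (-0.0022) in the second table, and for Hdac5 (0.0058) and Hdac6 (0.078) with spike-ins. The family median of 0.06 ran from -0.05 with total counts to 0.21 with spike-ins. Total counts moved every ratio by -0.11, spike-ins by 0.15 and DESeq2 size factors by -0.0058. The summed level of 128.3 TPM was 100.2 in the second table, 295 rescaled to nuclear protein-coding genes and 62.7 counts per kilobase. Class I held 45.0% in the second table, 56.8% per kilobase and 64.7% over catalytic-codon transcripts, and class IIa 50.5%, 38.0% and 29.5%. In the same order class IIb held 2.36%, 2.22% and 2.40%, and class IV 2.22%, 2.97% and 3.402%. The leading transcript was shared by 4 of 4 genes at 5 or more TPM, by construction fewer genes. The Hdac9 short-form share was 80.5% in the second table and 77.8% by counts. With each animal left out, the summed level ran from 121.8 to 134.8 TPM, class I from 39.9% to 42.05%, class IIa from 53.8% to 56.1%, class IIb from 1.89% to 2.03%, class IV from 2.08% to 2.16% and the Hdac9 share from 81.6% to 85.8%. Causes were not tested. No paired analysis was possible because the labels give 1 group, so no groups share replicate numbers. Depth limits Hdac8 most, at 76 counts per animal.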
